A study of Arabidopsis thaliana with 8 samples.

Results

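The clade A protein phosphatases 2C (PP2Cs) of Arabidopsis thaliana are a family of 9 genes, ABI1 (AT4G26080), ABI2 (AT5G57050), HAB1 (AT1G72770), HAB2 (AT1G17550), AHG1 (AT5G51760), PP2CA (AT3G11410, also AHG3), HAI1 (AT5G59220), HAI2 (AT1G07430) and HAI3 (AT2G29380). They were taken by locus from the array's annotation, and each had 1 probe. The family is thus 9 of the 25665 loci that the files name. It was compared between whole seedlings that carried WIN1 behind the 35S promoter, a viral promoter active in most tissues (genotype 35S:WIN1:NOS), and seedlings titled vector control, which the genotype field calls wild type. WIN1 is an AP2/ERF transcription factor known for its part in cuticle formation, and the design text names only the comparison of these groups. All seedlings were of ecotype Columbia-0, were taken at 2 weeks, and had been kept at 23 degrees Celsius on MS agar (1% sucrose) with a day of 16 h and a night of 8 h. Each of the groups was measured in 4 samples, on 4 Agilent arrays of 1 colour. The labels do not say how many transgenic lines were used, and nothing places the samples on separate plates. The p-values therefore reflect only how these samples varied, a spread that may be technical.

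Abscisic acid is the hormone that slows water loss and holds seeds dormant. Its receptors, the PYR and PYL proteins, bind the hormone and then block clade A PP2Cs, which otherwise dephosphorylate SnRK2 kinases and keep them off. Freed SnRK2 kinases phosphorylate transcription factors of the ABF group and the guard cell channel SLAC1, and the genes of clade A PP2Cs are themselves known to be switched on by the hormone, as a brake on its own signal.

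Signals were read relative to the 75th percentile of all probes on the same array, and a relative signal of 1 is that percentile. That percentile was 996.7 and 1269 on 35S:WIN1 replicates 1 and 2, 2273 and 2490 on replicates 3 and 4, and 1790 to 2354 on the control arrays. The groups were hybridised on separate slides with separate scan times, and hence the effects of slide, scan and genotype cannot be told apart. The transgene's probe (AT1G15360) read 49.2, 43.5, 22.6 and 14.4 on 35S:WIN1 replicates 1 to 4 and 0.00157 to 0.0149 on the control arrays. The control arrays also differed among themselves. Of 28 tested neighbouring genes on chromosome 3, 23 were well above background on all 35S:WIN1 arrays and on vector control replicate 4 and on at most 1 of control replicates 1 to 3, whose mean lay more than 3 log2 units below replicate 4. No clade A gene lies in that stretch. On vector control replicate 4, 6 of the 8 tested clade A genes lay within the range of the other 3 controls, ABI2 lay 0.11 log2 units above it and HAB2 0.08 below it. Seedling extracts are bulk samples, in which fewer cells of a type and less RNA per cell cannot be told apart.

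Of the 9 genes, 5 were higher in 35S:WIN1, HAI3 among them with a control level below background. HAI2 rose 7.77-fold from dim control signals, HAI1 4.13-fold, ABI1 3.13-fold and PP2CA 1.57-fold. HAI3 was 2.89-fold higher with control values raised to the detection floor, as set out below. HAB1, HAB2 and ABI2 did not pass the test. AHG1 was not tested. Of the 8 genes tested, 5 were called higher and 0 lower (limma across all genes, Benjamini-Hochberg adjusted p under 0.05). Over all 20443 genes tested, 35.3% were called in either direction, 15.1% higher and 20.2% lower. HAI3 passed the detection filter only through the group where it was high, so its presence among the 8 is not independent of its difference, and among the 7 genes measured on all 8 arrays 4 were called higher. The median log2 difference of these 7 was 0.65, against -0.04 over all genes tested, and with HAI3 it was 1.15. The 4 arrays of 35S:WIN1 all lay above the 4 control arrays for ABI1, PP2CA, HAI1, HAI2 and HAI3, and the groups did not overlap for 35.7% of all genes tested, 15.4% with 35S:WIN1 above and 20.3% with it below.

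**Figure D1:**
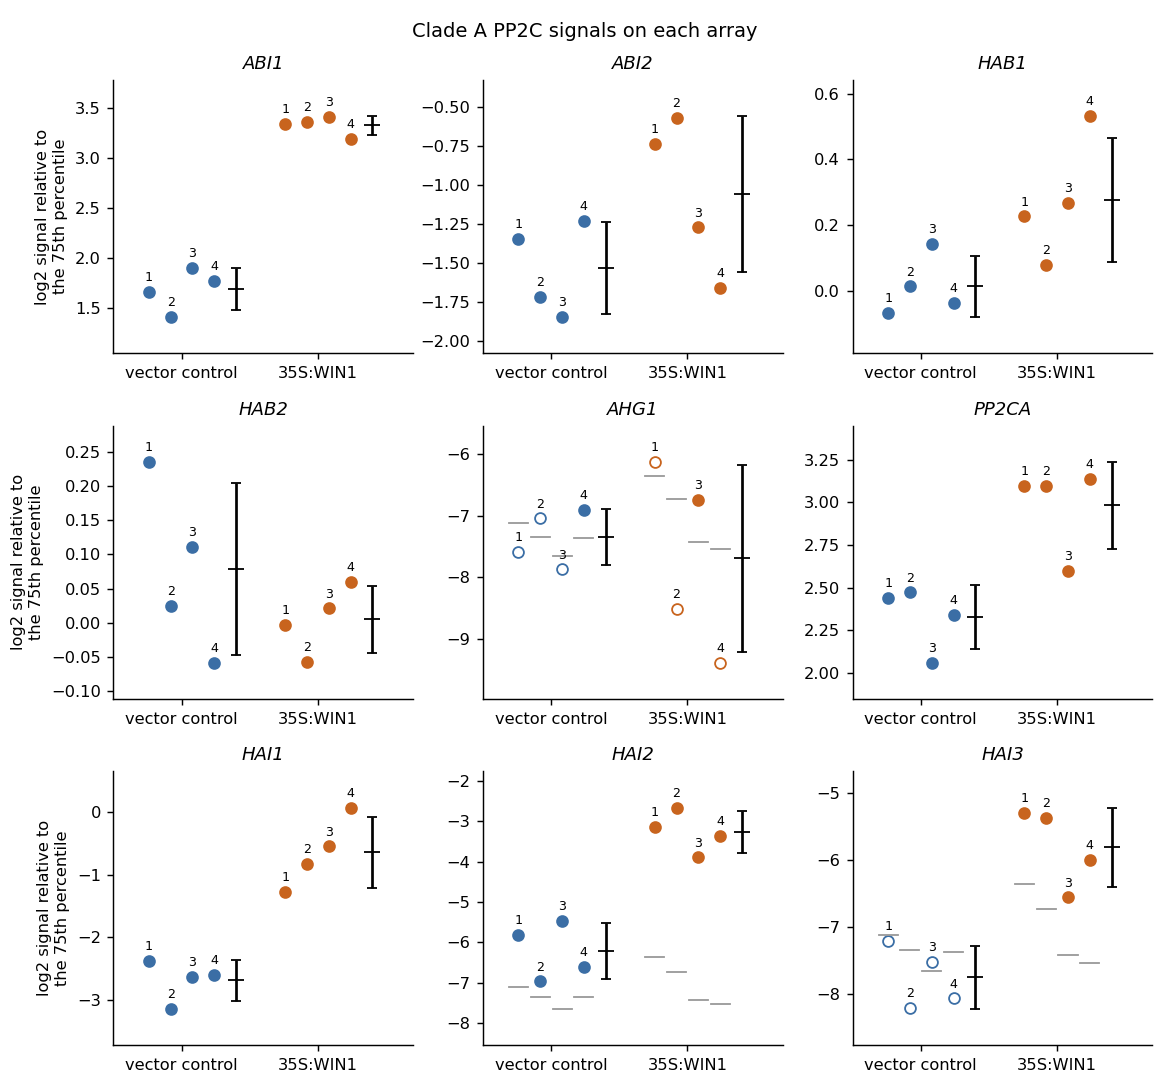
Log2 signal relative to each array's 75th percentile (vertical axes, own scale per gene) for the 9 clade A PP2C genes, with numbered points for the 4 replicates, black bars for mean and SD, open points where the probe was not well above background, and grey ticks in the AHG1, HAI2 and HAI3 panels for each array's detection floor. ABI1, PP2CA, HAI1, HAI2 and HAI3 show no overlap between the groups, and AHG1 passed the background criterion on 1 of 4 arrays per group.

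ABI1 and ABI2 encode close relatives known from dominant mutants that are insensitive to the hormone. ABI1 had relative signals of 10.1, 10.3, 10.7 and 9.15 on 35S:WIN1 replicates 1 to 4 and of 3.16, 2.65, 3.72 and 3.41 on vector control replicates 1 to 4. The groups were far apart, and the 35S:WIN1 arrays differed among themselves by no more than 1.17-fold. The means were 10.1 ± 0.649 and 3.23 ± 0.455 (SD, n = 4 each), or 3.13-fold higher in 35S:WIN1, a log2 difference of 1.65 with an SE of 0.13 (95% interval 1.36 to 1.93) (limma, adjusted p = 1.04e-04). This difference exceeded that of 95.5% of all genes tested.

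ABI2 had relative signals of 0.601, 0.675, 0.414 and 0.316 on 35S:WIN1 replicates 1 to 4 and of 0.394, 0.305, 0.278 and 0.427 on the controls. The groups overlapped, with 35S:WIN1 replicates 1 and 2 above every control and replicate 4 below controls 1 and 4. The log2 difference of 0.48 (SE 0.26, 95% interval -0.12 to 1.07) did not pass (limma, adjusted p = 0.190). Without 35S:WIN1 replicate 4 it was 0.68 and passed (adjusted p = 0.0442), whereas without the dim replicates 1 and 2 it was 0.07 (adjusted p = 0.850).

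HAB1 and HAB2 encode a further related pair, and loss of HAB1 is known to make seedlings more sensitive to the hormone. HAB1 read 1.17, 1.06, 1.20 and 1.45 in 35S:WIN1 and 0.954, 1.01, 1.10 and 0.974 in the controls. The groups overlapped by 35S:WIN1 replicate 2, which lay below control replicate 3. The log2 difference was 0.26 (SE 0.12, 95% interval -0.01 to 0.54, limma, adjusted p = 0.120).

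HAB2 read 0.998, 0.961, 1.01 and 1.04 in 35S:WIN1 and 1.18, 1.02, 1.08 and 0.960 in the controls. Its groups overlapped, and its difference was the nearest to 0 in the family. The log2 difference was -0.07 (SE 0.10, 95% interval -0.30 to 0.15, limma, adjusted p = 0.590), so the interval leaves room for changes of up to 0.30 log2 units downward and 0.15 upward.

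PP2CA, known for its part in germination and for binding ion channels, read 8.54, 8.55, 6.06 and 8.81 on 35S:WIN1 replicates 1 to 4. The controls read 5.43, 5.55, 4.17 and 5.06. The lowest 35S:WIN1 array, replicate 3, still lay above the highest control, although on the unscaled signal the groups overlapped. The means were 7.99 ± 1.29 and 5.05 ± 0.626 (SD, n = 4 each), a log2 difference of 0.65 with an SE of 0.16 (95% interval 0.30 to 1.01), or 1.57-fold (limma, adjusted p = 0.0139). The call was lost without 35S:WIN1 replicates 1 and 2, where the difference was 0.54 (adjusted p = 0.104), and on the deposited values, where it was 0.25 (adjusted p = 0.647).

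AHG1 is known for its activity in seeds, where it binds the dormancy protein DOG1. Its probe was well above background only on 35S:WIN1 replicate 3 and vector control replicate 4, at relative signals of 0.00931 and 0.00834. The gene was therefore kept out of the test. With the detection filter relaxed to 1 array, its log2 difference came to -0.34 (SE 0.69, limma, adjusted p = 0.732), a value that rests mostly on signals not above background. Most markers of seeds were at the low end too. Of 6 seed genes, 4 (the storage proteins CRA1, CRU3 and SESA3 and the oleosin OLEO1) were above background on no array. The other 2, EM1 and EM6, were tested and did not pass, with log2 differences from -0.45 to 1.53. The summed relative signal of the list was 0.00866 to 0.0805 in 35S:WIN1 and 0.0166 to 0.0287 in the controls. DOG1 itself, detected on 3 of 4 35S:WIN1 arrays and 1 of 4 controls, did not pass (log2 difference 2.24, SE 0.88, limma, adjusted p = 0.0791).

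HAI1, HAI2 and HAI3 are named for their strong induction by abscisic acid, and loss of HAI1 is known to change how plants adjust to low water potential. HAI1 had relative signals of 0.413, 0.563, 0.683 and 1.05 on 35S:WIN1 replicates 1 to 4 and of 0.192, 0.113, 0.161 and 0.164 on the controls. Every 35S:WIN1 array lay above every control, with a 2.55-fold range inside 35S:WIN1. The means were 0.678 ± 0.273 and 0.157 ± 0.0327 (SD, n = 4 each), a log2 difference of 2.05 with an SE of 0.29 (95% interval 1.38 to 2.71), or 4.13-fold (limma, adjusted p = 0.00155).

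HAI2 had the largest fitted difference of the family, though not with normexp, where HAI1 (1.74) and ABI1 (1.60) stood above its 1.54. HAI2 read 0.114, 0.159, 0.0673 and 0.0971 in 35S:WIN1 and 0.0177, 0.00796, 0.0226 and 0.0103 in the controls, well above background on all 8 arrays. Control replicates 2 and 4 lay near their detection floors of 0.00614 and 0.00604, so the size of the fold rests partly on dim signals. The groups were apart, and the ranges within them were 2.36-fold and 2.83-fold. The means were 0.109 ± 0.0383 and 0.0146 ± 0.00673 (SD, n = 4 each), a log2 difference of 2.96 with an SE of 0.38 (95% interval 2.09 to 3.82), or 7.77-fold (limma, adjusted p = 9.83e-04). Its difference exceeded that of 98.3% of all genes tested.

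HAI3 read 0.0253, 0.0241, 0.0106 and 0.0156 in 35S:WIN1, well above background on 4 of 4 arrays. In the controls it read 0.00674, 0.00338, 0.00546 and 0.00373, above background on 0 of 4. The control level is therefore not measured. An array's detection floor is its lowest signal of any probe well above background. With control values raised to it where needed, mean HAI3 was 2.89-fold higher in 35S:WIN1, a value that leaves out the spread among arrays. This is not a strict lower bound, since control replicate 3 was not well above background at 0.00546, over its floor of 0.00498. Limma on the raised values gave an adjusted p of 0.00383. Most control values were then floors, so this p does not measure the spread of the controls. Nor is any p of HAI3 independent of the filter, which it passed only through 35S:WIN1. Without raising, the fitted log2 difference was 1.94 (SE 0.33, adjusted p = 0.00348). With normexp background correction in place of the scanner's own, which compresses differences between dim signals, it was 0.73 and did not pass (adjusted p = 0.0824).

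**Figure D2:**
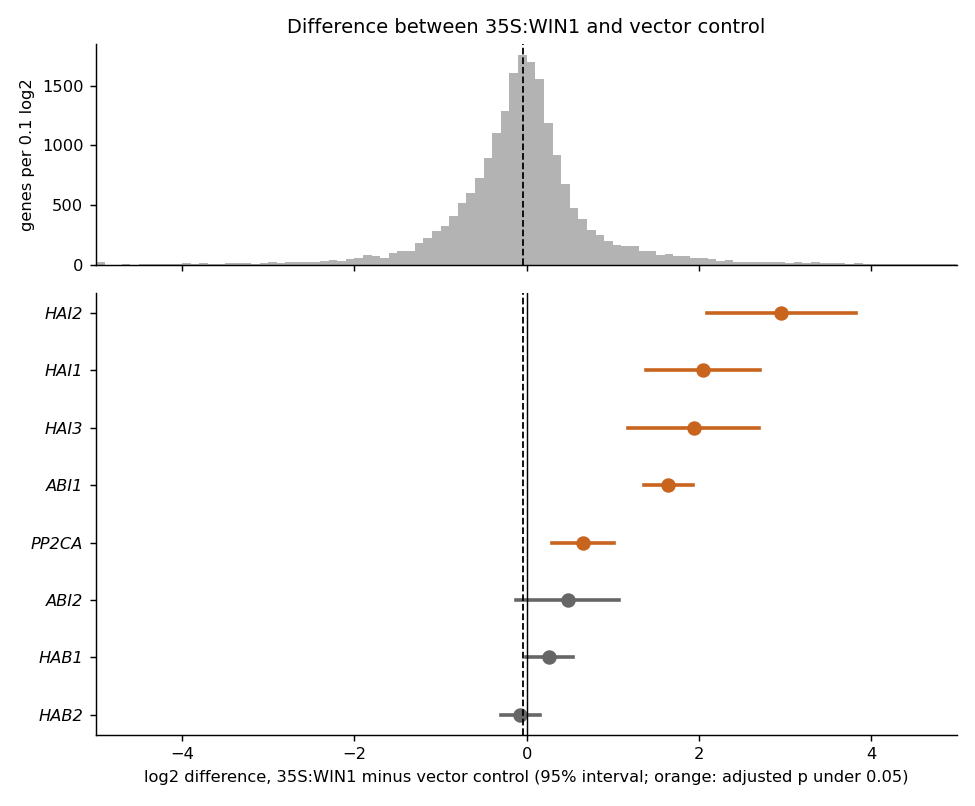
Histogram of the log2 difference of all genes tested (top, genes per bin of 0.1, differences past 5 drawn in the end bins) above the difference and 95% interval of the 8 tested clade A genes (bottom), with the dashed line at the median of all genes, -0.04. The intervals of HAI2, HAI1, HAI3, ABI1 and PP2CA lie above 0, and those of ABI2, HAB1 and HAB2 include it.

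The spread inside 35S:WIN1 ran in opposite directions for different members. ABI2, HAI2 and HAI3 were each lower on 35S:WIN1 replicates 3 and 4 than on replicates 1 and 2, as was the transgene's own signal. HAI1 was higher on replicates 3 and 4 than on replicates 1 and 2, and ABI1 differed little among the 4. Replicates 1 and 2 were also the dim arrays, and the part of array brightness in this pattern was not tested.

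Whether related members responded alike was asked within each array, as the log2 ratio of one gene to the other, which no scaling of whole arrays can move. Levels of different probes cannot be set against each other, so only the change of each ratio between the groups is given. Of 6 pairs, 3 were tested, by an exact permutation test over the 4 and 4 arrays with adjustment over these 3, where the smallest two-sided p is 0.0286. The ratio of ABI1 to ABI2 was higher in 35S:WIN1 by 1.17 on the log2 scale (95% interval 0.47 to 1.87, exact permutation p = 0.0286, adjusted p = 0.0429), with no overlap between the groups. The change of ABI1 was thus larger than that of ABI2. The ratio of HAB1 to HAB2 was higher by 0.34 (95% interval 0.07 to 0.60, exact permutation p = 0.0286, adjusted p = 0.0429), again without overlap, although neither gene passed alone.

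The ratio of HAI1 to HAI2 was lower by a log2 difference of -0.91, with overlap between the groups and an interval from -2.18 to 0.36 (exact permutation p = 0.143, adjusted p = 0.143). The interval holds no difference as well as a far larger response of HAI2 than of HAI1, and with normexp background correction the change was 0.20, the other way. Pairs with a member below background on most arrays of a group were not tested. These were HAI3 against HAI1 and HAI2, where the control level of HAI3 was below background, and AHG1 against PP2CA.

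**Figure D3:**
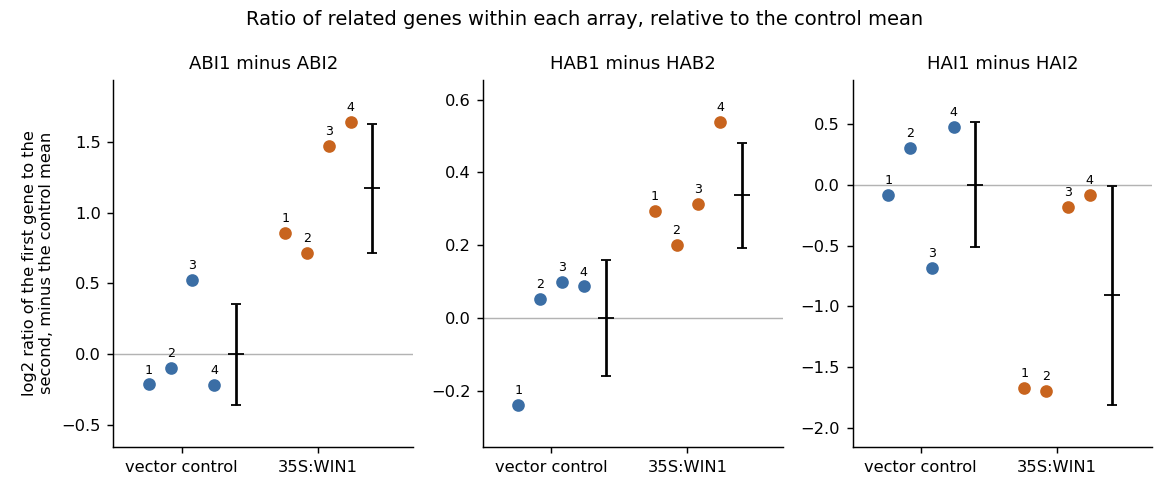
Log2 ratio of the first to the second gene of each tested pair on each array, minus the mean ratio of the controls (vertical axes, own scale per panel), with numbered points for replicates and black bars for mean and SD of 4 arrays. The groups are apart for ABI1 against ABI2 and for HAB1 against HAB2 and overlap for HAI1 against HAI2.

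The directions given so far hold for signals set against the 75th percentile. The spike-in RNAs added to every sample were read from the 8 of their probes well above background on all arrays. These read higher relative to that percentile in 35S:WIN1, with array medians of 2.77 to 4.38 on the log2 scale. In the controls the medians were 1.55 to 2.78, so that the groups touched at 35S:WIN1 replicate 4 and vector control replicate 1. Centring the arrays on the spike-ins moved all differences by -1.63 on average and put the median of all genes at -1.68. On that scale the fit gave all tested clade A genes the same SE, 0.55. Its calls thus rest on a shared error, not on each gene's own spread. HAI2 still passed as higher, with a log2 difference of 1.32 (limma, adjusted p = 0.0213). HAI1, HAI3 and ABI1 stood at 0.41, 0.31 and 0.01 and did not pass. PP2CA stood at -0.98, also without passing, and ABI2, HAB1 and HAB2 were called lower at -1.16, -1.37 and -1.71. A shift shared by all genes keeps their order, and HAI2, HAI1, HAI3, ABI1 and PP2CA lay above the median of all genes on both scales. Labelling started from a fixed 1 µg of RNA, and neither scale measures transcript per seedling.

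The calls also depended on the arrays used. Without 35S:WIN1 replicates 1 and 2, ABI1 (1.62), HAI1 (2.46), HAI2 (2.59) and HAI3 (1.47) were still called higher by limma, and PP2CA was not. With vector control replicate 4 alone, assumed to vary like the other groups, ABI1 (1.56, adjusted p = 0.0292) and HAI2 (3.35, adjusted p = 0.0436) were called. HAI1, HAI3 and PP2CA then had log2 differences of 1.96, 2.26 and 0.64 and did not pass (adjusted p = 0.134, 0.111 and 0.270).

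**Figure D4:**
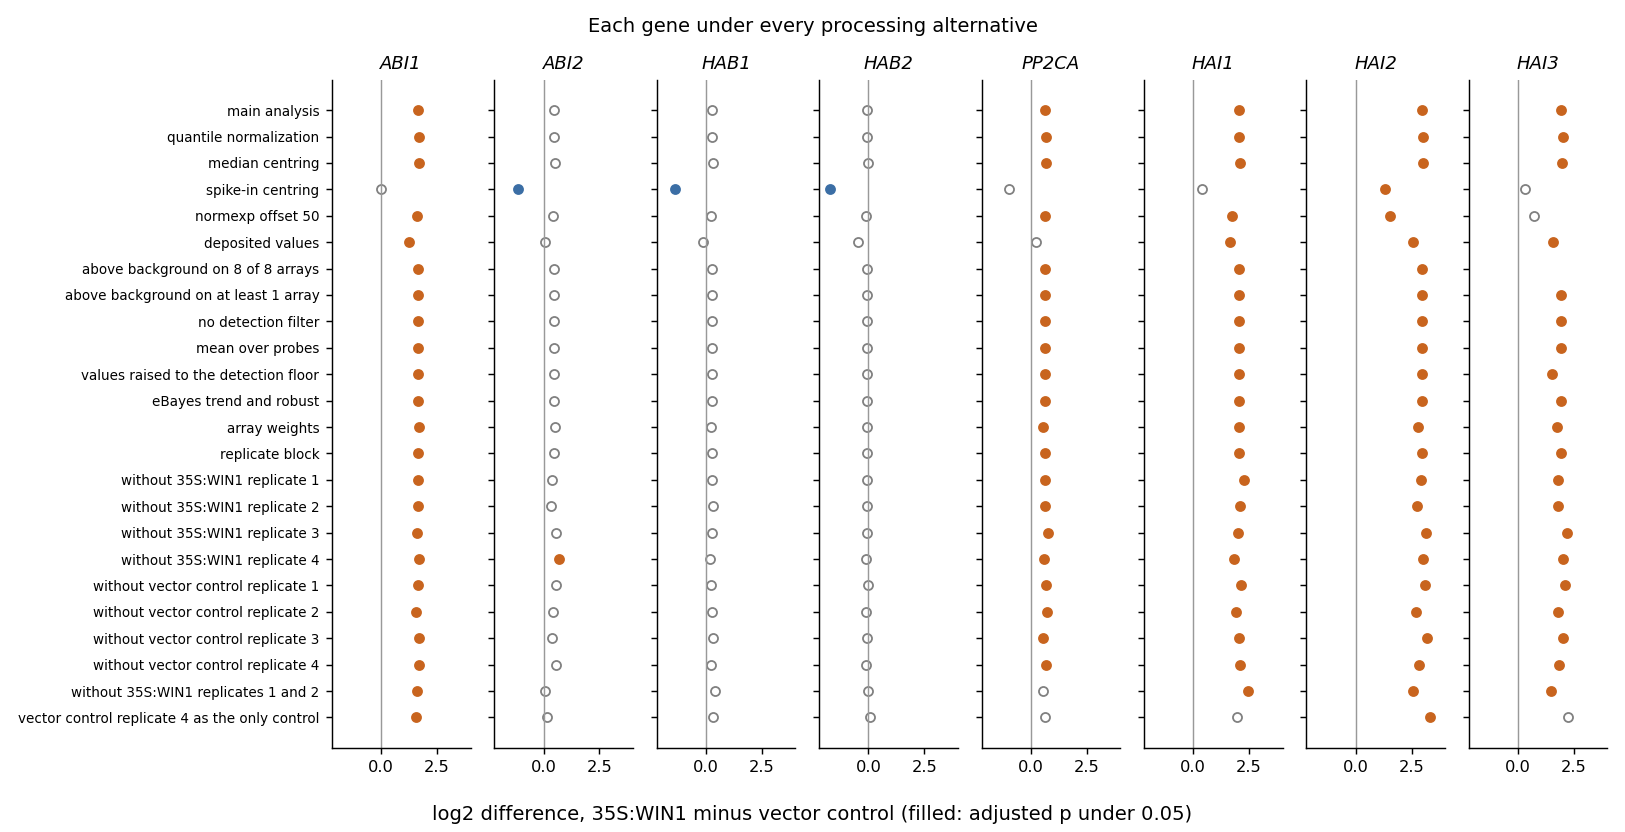
Log2 difference between 35S:WIN1 and vector control (horizontal axes) for each tested clade A gene under each processing alternative (rows), filled where the limma adjusted p was under 0.05, orange for higher and blue for lower. HAI2 is filled in every row, at 1.32 to 3.35, and only the spike-in scale puts ABI2, HAB1 and HAB2 at called negative values. In the spike-in row all genes have the same SE, 0.55.

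Outside the family, the pathway's other genes were read from 5 lists with 64 members, of which 54 were tested, and 21 of these were higher and 5 lower, with a median log2 difference of 0.31. Over all genes tested the shares were 15.1% higher and 20.2% lower, against which the count of each list is to be read. The 21 include SNRK2.2, whose call rests on part of the control arrays, as set out below. On the spike-in scale 7 were higher and 32 lower, and the medians of all 5 lists were below 0. The hormone receptors did not share in the calls. Of 14 PYR and PYL genes 9 were tested and 0 passed by limma, with a median log2 difference of -0.37 and a range from -0.72 to 0.39. PYL1 and PYR1 came nearest, at log2 differences of -0.46 and -0.72 (limma, adjusted p = 0.0507 and 0.0528). They are named here after their values were seen. Of the 5 receptors not tested, PYL10, PYL11, PYL12 and PYL13 were above background on no array.

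The SnRK2 kinases, the targets of the phosphatases, were called about as often as genes at large. Of 10 tested, 2 were higher and 2 lower, near the 15.1% and 20.2% over all genes, and the median log2 difference was -0.07. The higher ones were SNRK2.5 and SNRK2.2, and the SNRK2.2 call rests on part of the control arrays, as set out below. SNRK2.8 and SNRK2.7 were lower, with log2 differences of -0.70 (SE 0.15) and -0.59 (SE 0.13). Neither passed on the deposited values (limma, adjusted p = 0.0657 and 0.0812) or with vector control replicate 4 alone (0.0624 and 0.247), and SNRK2.7 did not pass with normexp (-0.27, adjusted p = 0.165). OST1 and SNRK2.3, which are among the kinases that the hormone activates most strongly, stood at -0.10 and -0.06 and did not pass. SNRK2.5 was called higher at 0.86 (limma, adjusted p = 0.0328) with overlapping groups, and it did not pass when replicate 1, 2 or 3 of 35S:WIN1 or any 1 of the controls was left out.

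SNRK2.2, a close relative of SNRK2.3, lies in the chromosome 3 stretch described above. It read 2.99 to 3.58 on the 35S:WIN1 arrays and 3.06 on vector control replicate 4, but 0.00144, 0.00698 and 0.0107 on control replicates 1 to 3. Its fitted log2 difference of 7.07 (SE 2.07, limma, adjusted p = 0.0303) therefore rests on those 3 control arrays. Against vector control replicate 4 alone the difference was 0.08 (adjusted p = 0.854).

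Among the abscisic acid transcription factors, 6 of 8 were tested and 2 were higher, with a median log2 difference of 0.23. ABI5, a regulator of germination, had a log2 difference of 1.62 (SE 0.43) and ABF3 of 0.57 (SE 0.18). The groups overlapped for both. The ABI5 call was lost when replicate 1 or 2 of either group was left out. The ABF3 call was lost when replicate 1, 2 or 3 of either group was left out. ABI3 and ABI4, known for their part in seeds, were above background on no array.

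Genes that make and break down the hormone were higher at a few steps. Of 13 genes 11 were tested, 4 were higher and 0 lower, and the median log2 difference was 0.51. NCED3, the dioxygenase known to limit synthesis under drought, had relative signals of 0.563 ± 0.141 in 35S:WIN1 and 0.0639 ± 0.0197 in the controls (SD, n = 4 each), 8.94-fold higher. The hydroxylases that inactivate the hormone stood higher still in fold, CYP707A3 at 19.1-fold (log2 difference 4.25, SE 0.28, limma, adjusted p = 5.58e-05) and CYP707A1 at 12.2-fold (3.61, SE 0.34). ABA3, which makes the cofactor of the last step of synthesis, was 1.44-fold higher (limma, adjusted p = 0.0217). That call did not survive leaving out replicate 1 or 3 of 35S:WIN1 or replicate 1, 2 or 4 of the control. The synthesis genes ABA1, ABA2 and AAO3 did not pass.

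Genes that respond to the hormone had the highest median of the 5 lists, 1.28. Of 18 tested, 13 were higher and 3 lower. RD22, a drought-induced gene, was 7.31-fold higher (log2 difference 2.87, SE 0.23) and GBF3, a transcription factor gene, 4.16-fold (2.06, SE 0.20). AFP1, which encodes a protein that binds ABI5, was 3.17-fold higher (1.67, SE 0.15). LEA4-5, of the late embryogenesis abundant proteins, was 5.87-fold higher with values raised to the detection floor, since it was above background on 1 of 4 controls. On the spike-in scale GBF3 stood at 0.42 and AFP1 at 0.03, and neither passed (limma, adjusted p = 0.461 and 0.958). RD22 and LEA4-5 still passed there. LEA4-5 met the detection filter through the group where it was high. Its calls on both scales, and its place in the counts of higher genes, are therefore not independent of its difference.

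The list was not of one direction. RD29A, a classic reporter of cold, drought and the hormone, had a log2 difference of -2.49 (SE 0.47), RAB18 of -1.02 (SE 0.31) and KIN2 of -0.97 (SE 0.24). RD29B, the neighbour of RD29A, stood at 2.05 (SE 0.33). These 4 genes are named here after their values were seen.

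**Figure D5:**
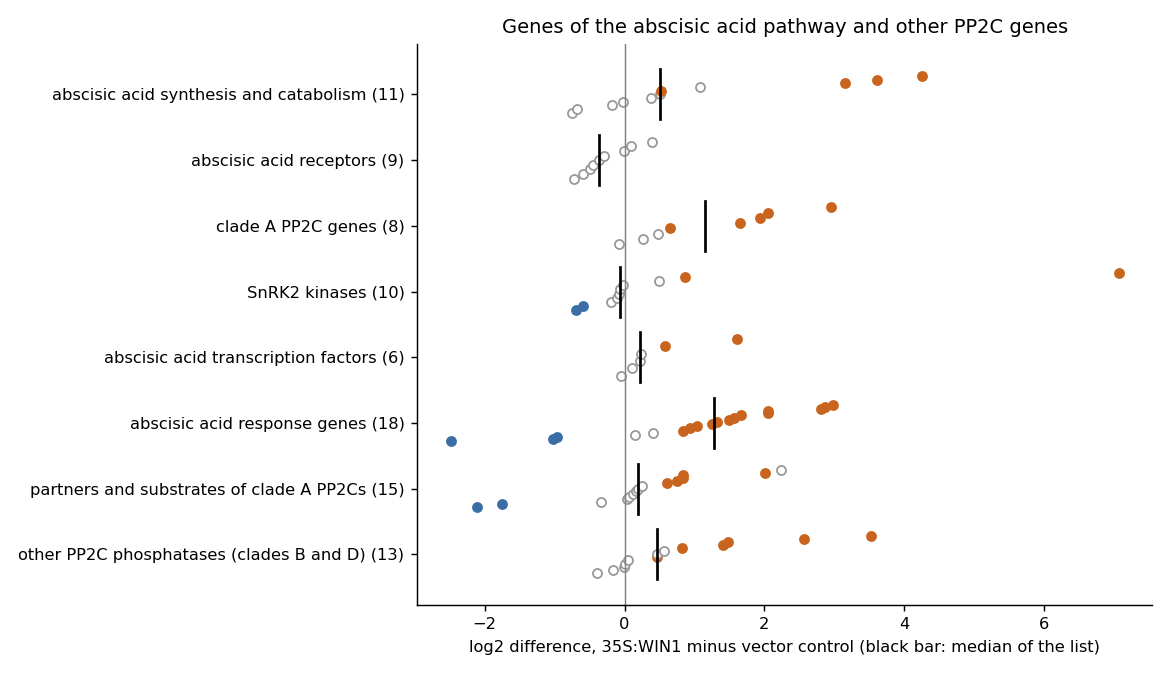
Log2 difference between 35S:WIN1 and vector control (horizontal axis) for every tested gene of each list (vertical axis, number tested in brackets), orange where called higher, blue where called lower, open where not called, with a black bar at the list's median. The clade A PP2C genes have a median of 1.15 with HAI3 and 0.65 without it, the response genes of 1.28 and the receptors of -0.37, and the SnRK2 point at 7.07 is SNRK2.2.

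Among partners and substrates of clade A PP2Cs, 5 of 15 tested genes were higher and 2 lower, beside 15.1% and 20.2% of all genes, and the median log2 difference was 0.19. ATHB6, a transcription factor that binds ABI1, had a log2 difference of 0.84 (SE 0.09) and GHR1, a receptor-like kinase of the guard cell, of 0.83 (SE 0.19). The anion channel genes SLAH3 and SLAC1 moved oppositely, at 2.00 (SE 0.36) and -2.11 (SE 0.32). On the spike-in scale ATHB6 and GHR1 stood at -0.80 each and SLAH3 at 0.37. None of these passed there, and SLAC1 was still called lower.

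SLAC1 is also a marker of guard cells. All 6 genes of that marker list were called lower, with a median log2 difference of -1.58, and their summed relative signal was 1.60 to 2.54 in 35S:WIN1 and 3.46 to 6.86 in the controls. Those sums did not overlap between the groups, whereas the sums of the other lists did. Of 4 leaf mesophyll markers 3 were lower (summed relative signal 164 to 224 in 35S:WIN1 and 217 to 255 in the controls). Of 6 root markers 2 were higher and 1 lower (60.2 to 95.2 and 41.3 to 64.5), and of 4 vascular markers 0 passed by limma (9.39 to 12.9 and 6.09 to 12.2). Over all genes 35.3% were called. The part of these markers in the differences of the clade A genes and the pathway was not tested.

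Among 13 phosphatase genes of clades B and D, which do not act as co-receptors of the hormone, 6 were higher and 0 lower, beside 15.1% and 20.2% of all genes, with a median log2 difference of 0.47. AP2C2 and AP2C1, of clade B, whose members act on MAP kinases, were 11.6-fold and 5.95-fold higher (log2 differences 3.53, SE 0.27, and 2.57, SE 0.33). The clade D genes AT4G33920 and AT5G06750 had log2 differences of 1.41 (SE 0.16) and 0.82 (SE 0.14), and on the spike-in scale of -0.23 and -0.82. AP2C1 stood at 0.94 on that scale and did not pass (limma, adjusted p = 0.0995), while AP2C2 still passed. The difference between clade A and the other clades was not tested.

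The gene whose profile over the 8 arrays was most like each member's was sought among 20269 genes, as a description of 8 arrays in 2 groups. For ABI1 it was TSB2 (AT4G27070), a tryptophan synthase gene (Pearson r = 0.997). For HAB2 it was ABO5 (AT1G51965, r = 0.990), for HAB1 RLP35 (AT3G11080, r = 0.990) and for HAI2 ARABIDILLO-1 (AT2G44900, r = 0.988). HAI1, ABI2 and PP2CA were closest to AT3G22980 (r = 0.990), AT2G19460 (r = 0.980) and AT1G36640 (r = 0.972). No clade A gene was closest to another.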

How the data were processed

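Total RNA of whole seedlings was labelled with Cy3, per the labels' protocols, and the submitters' processing notes name Agilent Feature Extraction, version 9.1.3.1, for the scanner files. Their processed signal is a linear intensity, background-subtracted per the file headers. The deposited table of the series holds the same intensity divided by a constant per group, 1341 (35S:WIN1) or 1312 (control), to within 0.0137% where a probe had 1 spot. Its scale is linear and uncentred. By replicate number, the medians of its columns were 0.0464, 0.0588, 0.114 and 0.125 in 35S:WIN1 and 0.0853, 0.111, 0.112 and 0.126 in the controls. The sources used here do not give the choice of constants.

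Control spots and spots marked as outliers were left out, spots of a probe were averaged, and log2 of the processed signal minus log2 of each array's 75th percentile was used. A locus was its brightest probe, kept if 4 or more of the 8 arrays had it well above background. This held for 20445 loci, 20443 of them with values in both groups. The 2 groups were compared with limma 3.58.1 (lmFit and eBayes, R 4.3.3), two-sided, with Benjamini-Hochberg adjustment over all of them at 0.05. The procedure was tested on simulated data. Arrays correlated at r = 0.948 to 0.987 within a group and 0.885 to 0.927 between groups, and the number of arrays limits the precision.

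The members and lists were chosen with earlier results of these data known. Named by rule were the 9 members, WIN1 and up to 4 called genes per list with the smallest p. The most alike gene of each member measured on all arrays was also named. Other genes named, such as DOG1, OST1, SNRK2.3, ABA1 and ABI3, fall outside this rule. Only some of them are marked in the text. Alternatives were other scalings (quantile, median, spike-in), normexp (offset 50), values of the deposited table, other detection filters, probe means, variance models, array weights, a replicate block and samples left out. Probe sequences and the cross-reaction of related genes were not analysed here. Locus names were checked against the RefSeq genes of TAIR10.1, a list that holds all 9 members.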

Additional observations from a re-analysis of the deposited data

Results flagged for a closer look

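Of 76 groups of 4 arrays examined, 7 held an array far from the other 3 by Dixon's test, where chance marks about 1 in 20 groups. All values are on the log2 scale. PP2CA read 2.60 on 35S:WIN1 replicate 3, with the nearest of the other arrays at 3.09. AFP1 read -0.93 on 35S:WIN1 replicate 4, with the nearest at -0.49. On vector control replicate 4, SLAC1 read -2.18 with the nearest control at -3.14, and SNRK2.8 read 0.30 with the nearest at -0.21. The ratio of ABI1 to ABI2 was 3.74 on vector control replicate 3, against 3.12 on the nearest control, and the ratio of HAB1 to HAB2 was -0.30 on vector control replicate 1, against -0.01. The ratio of HAI2 to HAI3, which was not tested, was 2.18 on 35S:WIN1 replicate 1, against 2.64 on the nearest array.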

How the results depend on the processing

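The 8 tested clade A genes kept their direction and their side of the threshold under quantile normalization, median centring, other variance models, array weights and the replicate block. HAI2 passed under every alternative run, on the spike-in scale with an SE that all tested members shared. Leaving out each array in turn kept ABI1, PP2CA, HAI1, HAI2 and HAI3 called, with counts of 5 to 6 members higher, 2272 to 3707 of all genes higher and 2983 to 4628 lower, and 16 to 22 genes of the 5 abscisic acid lists higher and 4 to 8 lower. HAI3 was not kept by the filter on all 8 arrays. The changes in ratio ran from 1.01 to 1.35, from 0.26 to 0.38 and from -1.18 to -0.65 for ABI1 to ABI2, HAB1 to HAB2 and HAI1 to HAI2.

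On the spike-in scale 1 member was higher and 3 lower, 402 of all genes were higher and 17160 lower, and 7 and 32 of the lists. Below 0 on that scale were 2192 of the 3078 genes called higher. Of the members, ABI2 (-1.16), HAB1 (-1.37) and PP2CA (-0.98) turned from above 0 to below it. Among the called list genes named by rule, so did ABA3 (-1.11), ABF3 (-1.06), ABI5 (-0.0185), AT4G33920 (-0.23), AT5G06750 (-0.82), ATHB6 (-0.80), GHR1 (-0.80) and SNRK2.5 (-0.77). The spike-in shift moves every gene by construction, and its own cause was not tested. The deposited values gave 905 genes higher and 2088 lower and 12 of the lists higher, and array weights gave 9 of the lists lower; the cause was not tested. Without 35S:WIN1 replicates 1 and 2 the counts were 1951 and 2367, with 13 of the lists higher. With no control but vector control replicate 4 they were 2 members higher, 300 and 127 of all genes and 4 and 0 of the lists by limma. Both of these fits hold fewer samples, and the second takes its spread from the 35S:WIN1 arrays only.

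Replicate numbers are not known to pair the arrays. Deviations of same-numbered arrays correlated at -0.04 to 0.14, and 2 of 8 arrays correlated best with their own number. With so few arrays this cannot settle whether they were paired. With the replicate block 5 members were higher, as without it, with adjusted p of 0.00257 for ABI1, 0.0124 for PP2CA, 0.00842 for HAI1, 0.0111 for HAI2 and 0.0127 for HAI3, and 2583 of all genes were higher and 3458 lower. Signal over background limits AHG1 and the control level of HAI3.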
